A study of Homo sapiens with 6 samples.

Results

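Classical cadherins, p120 catenin and α-catenin were examined at the mRNA level in HGC27 cells. The 10 genes, CDH1, CDH2, CDH3, CDH4, CDH5, CDH6, CDH11, CDH13, CTNND1 and CTNNA1, were taken by their exact gene names from 39739 gene rows, and all 10 had a row. HGC27 is a cell line established from an undifferentiated human gastric carcinoma. In HGC27-FN1 3′-UTR cells, the untranslated 3′ end of the fibronectin mRNA was stably overexpressed from a lentivirus, and infected cells were screened with puromycin. HGC27-control cells were labelled as control only, and the sources used here do not give their vector or selection. Each group had 3 libraries. Nothing stated that these came from separate cultures or from more than 1 infection, so p-values measured only the spread between these libraries, which may be technical.

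Cadherins hold neighbouring cells together through calcium-dependent binding of their outer domains. In classical cadherins the intracellular tail binds p120 catenin close to the membrane and β-catenin or plakoglobin farther along, and α-catenin links the latter to actin. p120 catenin, the product of CTNND1, keeps cadherins at the cell surface by shielding them from endocytosis. E-cadherin (CDH1) is the main cadherin of gastric epithelium, and its loss is a hallmark of diffuse gastric cancer. CDH1, CDH2, CDH3 and CDH4 encode type I classical cadherins (E-, N-, P- and R-cadherin), whereas CDH5, CDH6 and CDH11 encode the type II cadherins VE-cadherin, K-cadherin and OB-cadherin. CDH13 encodes T-cadherin, which is anchored by a lipid and has no intracellular tail, so it is no classical cadherin. CTNNA1 encodes αE-catenin and not a p120 protein.

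The tail segment that p120 catenin grips contains a run of glycine codons followed by an acidic codon. Coding sequences of the members in GENCODE 29 (GRCh38) were searched in frame on the coding strand for GGNGGNGGNGAN, which encodes glycine, glycine, glycine and then aspartate or glutamate. The search covered 19530 genes, of which 2.92% held the motif. The juxtamembrane match of each classical cadherin is shown 5′ to 3′ on the coding strand, with the motif in capitals, because it is the feature these genes share with respect to p120 catenin.
CDH1, chr16:68828278-68828301, plus strand, codon 759 of 882: gaagaaGGAGGCGGAGAAgaggac
CDH2, chr18:27982947-27982970, minus strand, codon 777 of 906: gaagaaGGTGGAGGAGAAgaagac
CDH3, chr16:68695359-68695382, plus strand, codon 705 of 829: gaagagGGGGGTGGCGAAgaggac
CDH4, chr20:61933098-61933121, plus strand, codon 787 of 916: gaggaaGGCGGTGGCGAGgaggac
CDH5, chr16:66402753-66402776, plus strand, codon 649 of 784: gaggagGGCGGCGGCGAGatggac
CDH6, chr5:31322916-31322939, plus strand, codon 663 of 790: gacgaaGGTGGTGGAGAGgaggac
CDH11, chr16:64947978-64948001, minus strand, codon 667 of 796: gatgaaGGGGGTGGGGAAgaagac

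The motif occurred in the tail of both type I and type II members and was not found in CDH13, whose coding sequence has 760 codons, or in CTNND1. CDH1, CDH2, CDH3 and CDH4 each held 2 matches, the second within the last codons of the protein. CTNNA1 held 1 match, at codon 274 of 906. A match is a description of letters and does not show that p120 catenin was bound in these cells.

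Expression was given as RPKM (reads per kilobase of merged exons per 1000000 assigned reads), which divides by gene length and so permits levels of different genes to be set side by side. RPKM values were whole multiples of what 1 read is worth in every library, which gave back the reads behind each value. Assigned reads ranged from 16357085 to 29202046 in HGC27-FN1 3′-UTR and from 22332816 to 37037532 in HGC27-control. The FN1 row, the check of the labels, measured 0.777, 0.745 and 0.819 RPKM in HGC27-FN1 3′-UTR replicates 1, 2 and 3 and 0.543, 0.474 and 0.532 RPKM in HGC27-control. This was a log2 fold change of 0.52 ± 0.11 (SE, adjusted p = 0.0292, limma), and the row counts all FN1 exons, not the 3′-UTR alone. Differences between groups were fitted with limma on log2(RPKM + 0.1) over 23299 genes that reached 0.1 RPKM in at least 3 libraries. Fold changes on that scale understate the change of low genes, and p-values were adjusted after Benjamini and Hochberg across the whole fit.

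The members fell into tiers of expression. In HGC27-control, CTNNA1 averaged 27.4 RPKM, CTNND1 13.3 RPKM and CDH6 7.34 RPKM, and these levels did not overlap between libraries. CDH3 (0.136 RPKM), CDH1 (0.126 RPKM) and CDH4 (0.121 RPKM) followed, with CDH6 53.8-fold above CDH3 and with overlapping libraries from each to the next. CDH13 (0.0474 RPKM) and CDH2 (0.0378 RPKM) overlapped as well, and CDH5 and CDH11 had at most 1 read in any library. In HGC27-FN1 3′-UTR the top of the order was the same, but CDH1 (0.703 RPKM) stood above CDH3 (0.327 RPKM), and CDH3 above CDH13 (0.252 RPKM), without overlap. CDH4 (0.0743 RPKM) and CDH2 (0.0515 RPKM) overlapped below them. Across the genes with at least 1 read, the mean level of CDH1 over the 6 libraries lay at percentile 51.1, against 86.1 for CDH6, 90.2 for CTNND1 and 94.9 for CTNNA1.

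**Figure D1:**
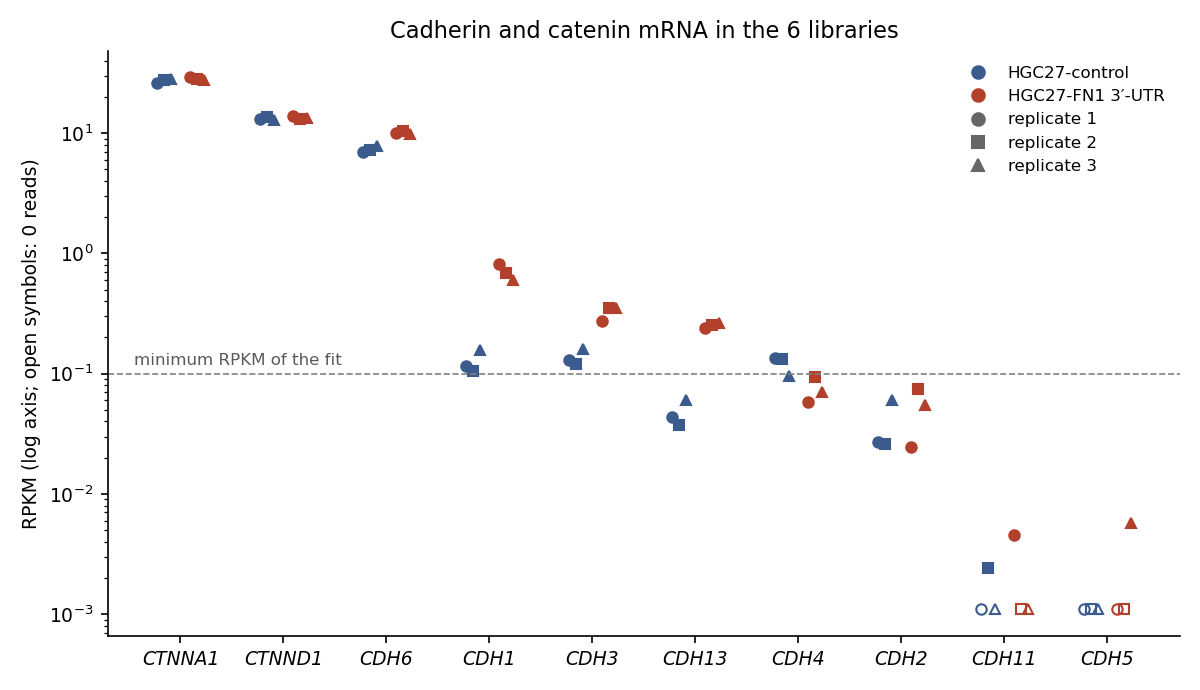
RPKM of the 10 genes in each library on a log axis, ordered by mean level, with HGC27-control in blue, HGC27-FN1 3′-UTR in red and replicates 1, 2 and 3 as circle, square and triangle. CTNNA1, CTNND1 and CDH6 lie near or above 7 RPKM in every library, while the other 7 genes stay below 1 RPKM. Open symbols are libraries with 0 reads.

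Of the 10 members, 6 reached the minimum and were tested, and 4 of them (CDH1, CDH3, CDH6 and CDH13) were higher in HGC27-FN1 3′-UTR at an adjusted p under 0.05. None was lower, and CTNND1 and CTNNA1 were not called. Over all genes tested, 5.62% were called higher and 7.36% lower (13% in either direction). This balance turned with median-ratio scaling, which gave 1664 higher and 1387 lower genes against 1310 and 1715, while the members' calls stayed at 4 higher and 0 lower. A second rule asked for a limma p under 0.05 before adjustment together with a log2 fold change beyond 1 in either direction. CDH1 and CDH13 met this rule, as did 1.65% of all genes tested upward and 0.815% downward. CDH13 reached the minimum only through the HGC27-FN1 3′-UTR libraries, so a gene of its pattern could enter the test only if it differed. CDH2, CDH4, CDH5 and CDH11 were not tested in that fit. Counting untested genes too, 5 members had groups without overlap, 4 of them higher and 1 (CDH4) lower in HGC27-FN1 3′-UTR. Among all rows with at least 1 read, 10.6% were higher without overlap and 15% lower.

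Among the type I cadherins, CDH1 had the highest ratio between groups. CDH1 lies at chr16:68737225-68835548 on the plus strand of GRCh38, and its reads were counted over 20 merged exons. It measured 0.821, 0.683 and 0.604 RPKM in HGC27-FN1 3′-UTR replicates 1, 2 and 3, from 83, 103 and 109 reads. HGC27-control replicates 1, 2 and 3 measured 0.116, 0.105 and 0.157 RPKM, from 16, 20 and 36 reads. Every HGC27-FN1 3′-UTR library was above every control library. The lowest of them, replicate 3, had an exact Poisson 95% interval of 0.496 to 0.729 RPKM, and the highest control, replicate 3, had one of 0.11 to 0.218 RPKM. Such intervals cover counting error only. Means were 0.703 ± 0.11 RPKM (SD, n = 3) and 0.126 ± 0.0276 RPKM (SD, n = 3), a ratio of 5.57. The log2 fold change was 1.83 ± 0.18 (SE, 95% interval 1.40 to 2.25, adjusted p = 0.00316, limma), and a fit to the recovered reads (limma voom, all 36521 genes with a read, 13% of them called) gave 2.40. In bulk RNA, more cells with CDH1 mRNA and more CDH1 mRNA per cell cannot be told apart.

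P-cadherin (CDH3), which is found in basal and regenerating epithelia, is the neighbour of CDH1 on chromosome 16, at chr16:68636189-68722616 on the same strand, with 14608 bases between the end of CDH3 and the start of CDH1. Its levels were 0.275, 0.355 and 0.351 RPKM in HGC27-FN1 3′-UTR and 0.129, 0.12 and 0.16 RPKM in HGC27-control. The reads behind them numbered 28, 54 and 64 against 18, 23 and 37. Again no control library reached the lowest HGC27-FN1 3′-UTR library. Means of 0.327 ± 0.0453 and 0.136 ± 0.0212 RPKM (SD, n = 3 each) gave a ratio of 2.40 and a log2 fold change of 0.85 ± 0.18 (SE, adjusted p = 0.0307, limma). This call was lost when any 1 of the 6 libraries was left out (adjusted p between 0.0597 and 0.101, limma) and without the filter on low genes (adjusted p = 0.053, limma). The voom fit kept it, with a log2 fold change of 1.26 (95% interval 0.79 to 1.73, adjusted p = 0.000182).

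N-cadherin (CDH2), the cadherin of neural and mesenchymal cells, was nearly undetected. It had 2, 9 and 8 reads in HGC27-FN1 3′-UTR (0.0247, 0.0744 and 0.0553 RPKM) and 3, 4 and 11 reads in HGC27-control (0.0271, 0.0262 and 0.06 RPKM). The groups overlapped, and an exact two-sided permutation test over libraries gave p = 0.7. The voom log2 fold change was 0.45, with a 95% interval from -0.56 to 1.46. That interval gives no direction, and a difference was not detectable at this depth.

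R-cadherin (CDH4), known from the retina, was the member whose order ran the other way. HGC27-FN1 3′-UTR libraries measured 0.0582, 0.0947 and 0.0699 RPKM from 7, 17 and 15 reads, and controls 0.134, 0.132 and 0.0955 RPKM from 22, 30 and 26 reads. The highest HGC27-FN1 3′-UTR library lay just under the lowest control. The exact two-sided permutation test gave p = 0.1, which is the smallest value that 3 against 3 libraries allow. The voom log2 fold change was -0.62, with an interval from -1.25 to 0.01 (adjusted p = 0.219), so the difference did not pass the test.

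K-cadherin (CDH6), a type II cadherin of fetal kidney and of several carcinomas, was the most abundant cadherin among the members in all 6 libraries. CDH6 (chr5:31193750-31329146, plus strand) measured 10.0, 10.4 and 9.94 RPKM in HGC27-FN1 3′-UTR, from 2033, 3131 and 3592 reads. In HGC27-control it measured 6.95, 7.22 and 7.84 RPKM, from 1921, 2754 and 3594 reads. All 3 HGC27-FN1 3′-UTR libraries were higher than all controls, although the last library of each group held almost the same number of CDH6 reads at different depths. The means were 10.1 ± 0.219 and 7.34 ± 0.456 RPKM (SD, n = 3 each), a ratio of 1.38. The log2 fold change of 0.46 ± 0.052 (SE, adjusted p = 0.0051, limma) was smaller than that of CDH1 and had the smallest standard error of the called members.

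The other type II cadherins were at the floor of detection. VE-cadherin (CDH5), the cadherin of endothelium, had 1 read in HGC27-FN1 3′-UTR replicate 3 and 0 reads in the other 5 libraries, which allows up to 0.0307 RPKM in the shallowest library (3 reads). OB-cadherin (CDH11), found in osteoblasts and mesenchyme, had 1 read in HGC27-FN1 3′-UTR replicate 1, 1 read in HGC27-control replicate 2 and none elsewhere. Both levels were too low to compare.

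T-cadherin (CDH13), which binds adiponectin and low-density lipoprotein, was close to CDH1 in its ratio. CDH13 (chr16:82626803-83800640, plus strand) lies far from CDH1 on the same chromosome arm. It measured 0.24, 0.253 and 0.263 RPKM in HGC27-FN1 3′-UTR from 44, 69 and 86 reads, and 0.044, 0.0377 and 0.0603 RPKM in HGC27-control from 11, 13 and 25 reads. All HGC27-FN1 3′-UTR libraries were above all controls, with means of 0.252 ± 0.0114 and 0.0474 ± 0.0117 RPKM (SD, n = 3 each). The ratio of means was 5.32 and the log2 fold change 1.26 ± 0.20 (SE, adjusted p = 0.0126, limma), against 2.39 (95% interval 1.87 to 2.90, adjusted p = 2.5e-08) in the voom fit. Without control replicate 2 the adjusted p was 0.053 (limma), and with any HGC27-FN1 3′-UTR library left out CDH13 was no longer among the genes tested.

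**Figure D2:**
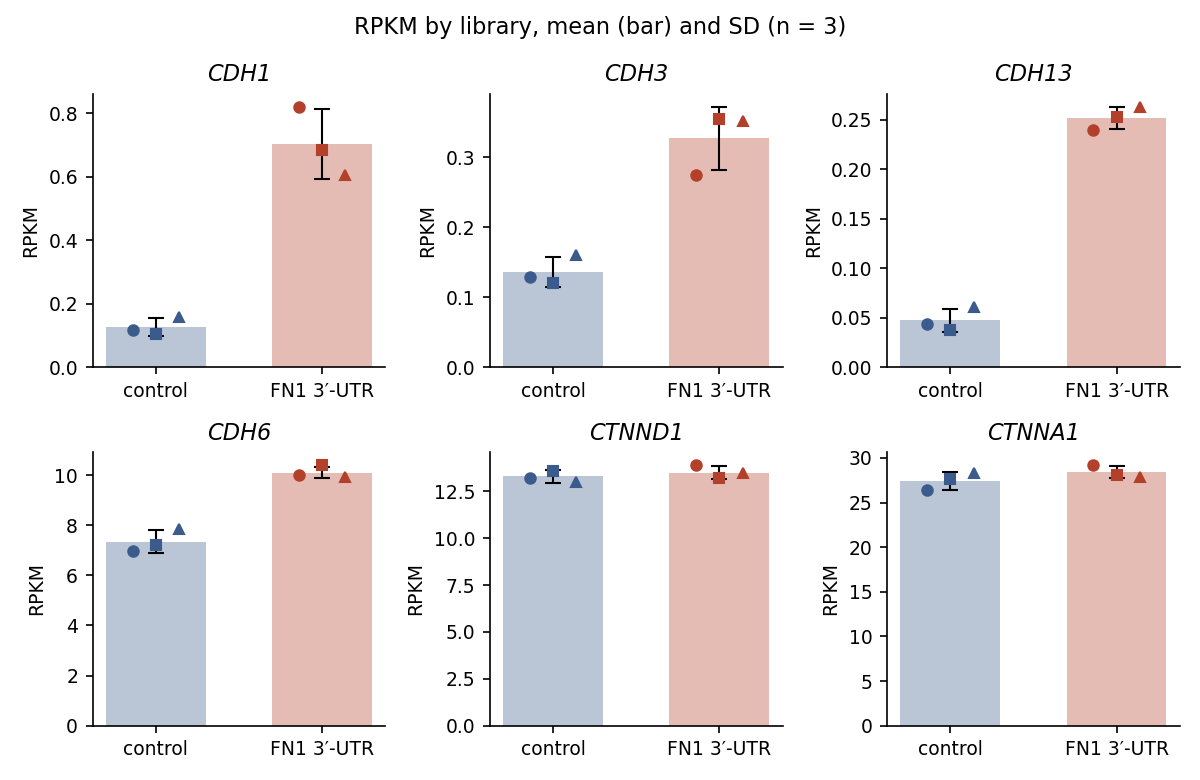
RPKM of the 6 tested members, with 1 symbol per library, bars at the group mean and error bars of 1 SD (n = 3); every axis starts at 0. The groups are apart for CDH1, CDH3, CDH13 and CDH6 and overlap for CTNND1 and CTNNA1.

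The catenins did not follow the cadherins. CTNND1 (chr11:57753243-57819546, plus strand) measured 13.9, 13.2 and 13.5 RPKM in HGC27-FN1 3′-UTR and 13.2, 13.6 and 13 RPKM in HGC27-control, and the groups overlapped. The log2 fold change was 0.03 ± 0.036 (SE, adjusted p = 0.662, limma), with a 95% interval from -0.06 to 0.12. CTNND1 drew on 8313 and 10526 reads, so its interval was narrow compared with those of the low cadherins. CTNNA1 (chr5:138610967-138935034, plus strand) measured 29.2, 28.1 and 27.9 RPKM against 26.4, 27.6 and 28.3 RPKM, also overlapping. Its log2 fold change was 0.05 ± 0.037 (SE, adjusted p = 0.421, limma), with an interval from -0.04 to 0.14. TMX2-CTNND1, a readthrough row on the same strand as CTNND1, stood at 37.5 and 36.6 RPKM (log2 fold change 0.03, adjusted p = 0.801, limma). A gene total does not show which p120 isoforms were made.

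**Figure D3:**
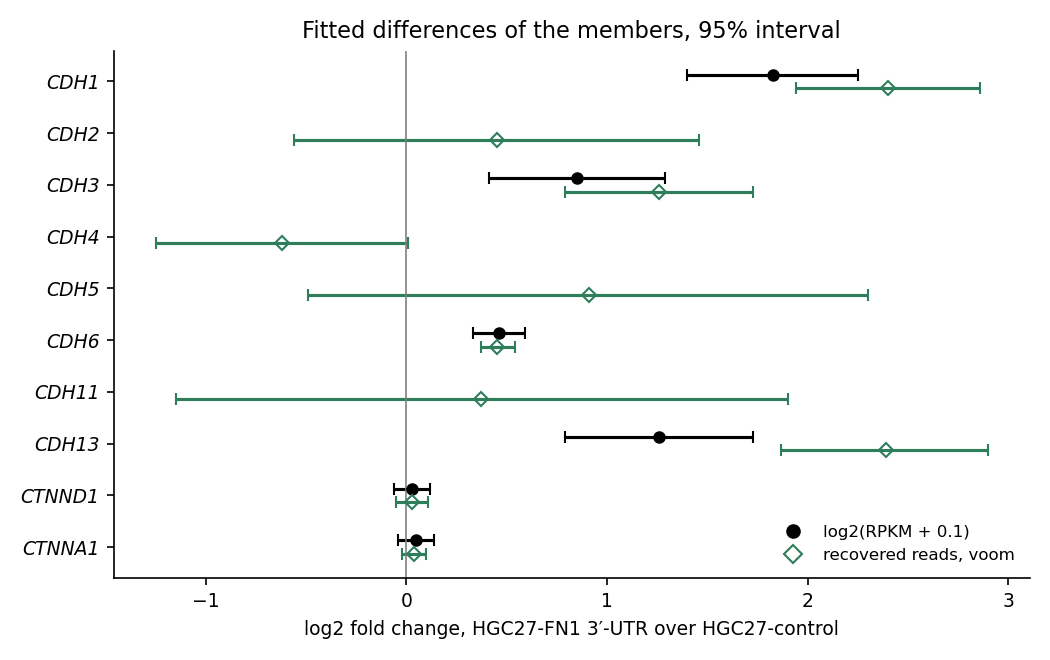
Log2 fold change of each member, HGC27-FN1 3′-UTR over HGC27-control, with its 95% interval: black circles for the fit on log2(RPKM + 0.1), drawn for the 6 tested members, and open green diamonds for voom on the recovered reads of all genes. CDH1, CDH3, CDH6 and CDH13 lie above 0 in both fits. CTNND1 and CTNNA1 have narrow intervals over 0, and the intervals of CDH2, CDH5 and CDH11 are wide.

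Summing the 8 cadherins shows what these differences amounted to in transcripts. The sum was 11.5, 11.8 and 11.3 RPKM in HGC27-FN1 3′-UTR and 7.40, 7.64 and 8.37 RPKM in HGC27-control. Group means were 11.5 ± 0.269 and 7.8 ± 0.506 RPKM (SD, n = 3 each). Of the difference of 3.72 RPKM, CDH6 made up 74.7%, CDH1 15.5%, CDH13 5.51% and CDH3 5.12%. Thus the cadherin with the smallest called fold change contributed most of the added transcript. The CDH6 share of the sum was 94.0 ± 0.421% in HGC27-control and 87.8 ± 0.247% in HGC27-FN1 3′-UTR, while the CDH1 share was 1.61 ± 0.255% and 6.10 ± 0.947% (SD, n = 3 each). Over 22 cadherins the CDH6 share ran the other way, from 45.9 to 48.2% in HGC27-control and from 53.6 to 55.7% in HGC27-FN1 3′-UTR. CDH6 exceeded CDH1 by 59.9-, 68.7- and 49.8-fold in the control libraries and by 12.2-, 15.2- and 16.4-fold in the HGC27-FN1 3′-UTR libraries. The sum relative to CTNND1 was between 0.56 and 0.645 in HGC27-control and between 0.823 and 0.894 in HGC27-FN1 3′-UTR.

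Short annotated RNAs inside the cadherin genes were also read. RP11-354M1.2, on the strand opposite to CDH1 and within its span, had 23, 20 and 20 reads in HGC27-FN1 3′-UTR and 1, 3 and 5 in HGC27-control. Its log2 fold change was 2.77 ± 0.33 (SE, adjusted p = 0.0059, limma). FTLP14, a ferritin light chain pseudogene on the CDH1 strand, had 4, 3 and 4 reads against 0, 1 and 0 (adjusted p = 0.0183, limma), and it entered the test only through the HGC27-FN1 3′-UTR libraries. Within CDH3, RP11-615I2.2 on the opposite strand had 2, 14 and 11 reads against 1, 4 and 3 and was not tested in the RPKM fit. Within CDH6, DUX4L51 on the same strand rose by 0.81 on the log2 scale (adjusted p = 0.0154, limma), and RP11-152K4.2 on the opposite strand had 0.24 (adjusted p = 0.1, limma). The library kit kept strand, but whether counting used it was not given in the sources used here. Rows were taken by lying within a cadherin's span, introns included, and overlap with cadherin exons was not examined. Whether reads of these rows came from the cadherin transcripts is therefore not known.

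Genes around CDH3 and CDH1 were read next. Within 500000 bases of the pair and outside their spans, 27 rows were tested, of which 1 was higher, 4 were lower and 22 were not called, with a median log2 fold change of -0.03 (all genes tested, -0.04). TANGO6, which encodes a transport and Golgi organisation factor, was the row called higher (log2 fold change 0.30, adjusted p = 0.016, limma). NFATC3 (-0.23), VPS4A (-0.18), RP11-96D1.11 (-0.28) and RP11-343C2.11 (-0.18) were lower on the log2 scale. ZFP90, the nearest tested row upstream of CDH3, had -0.24 (adjusted p = 0.0626, limma). Apart from TANGO6, the rows called higher in this window were CDH3, CDH1 and the 2 rows inside CDH1, with the limit given for FTLP14.

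**Figure D4:**
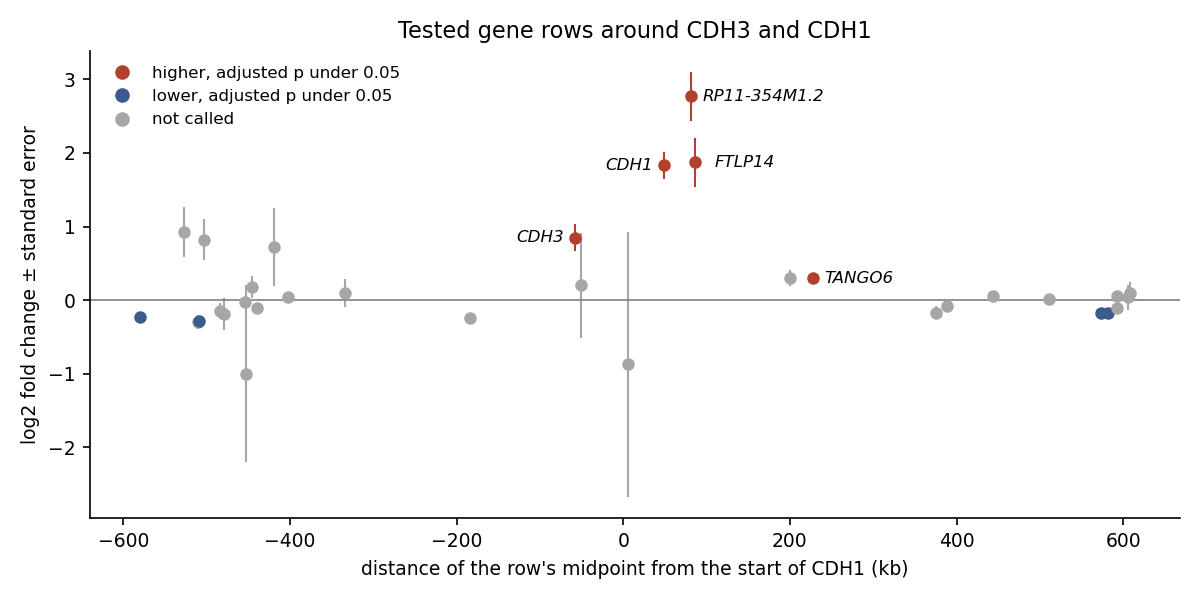
Log2 fold change with its standard error of the tested gene rows around CDH3 and CDH1, against the distance of each row's midpoint from the start of CDH1 in kb. Red points were higher and blue points lower at an adjusted p under 0.05. CDH1 and the 2 rows inside it lie highest, at 1.83, 2.77 and 1.87, while called rows outside the pair lie between -0.28 and 0.30.

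Partners of the cadherins were counted from lists of 71 genes, of which 58 were tested, 8 were higher, 8 lower and 42 not called, with a median log2 fold change of -0.03. Over all genes tested, 5.62% were called higher and 7.36% lower, and these shares also stand beside the counts of lists and markers that follow. Among the other catenins, 6 of 8 were tested and 1 was higher. This was JUP (plakoglobin, the catenin shared by adherens junctions and desmosomes), at 0.544, 0.431 and 0.61 RPKM in HGC27-FN1 3′-UTR against 0.163, 0.151 and 0.142 RPKM in HGC27-control. All its HGC27-FN1 3′-UTR libraries were higher, and the log2 fold change was 1.31 ± 0.17 (SE, adjusted p = 0.00747, limma). β-catenin (CTNNB1), far more abundant at 14.2 ± 0.678 and 13.6 ± 0.687 RPKM (SD, n = 3 each), had a log2 fold change of 0.06 (adjusted p = 0.492, limma). CTNND2, the neural p120 relative, had the lowest value of that list, -0.33, and was not called.

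Of 14 other junction partners, 12 were tested, 2 were higher and 3 lower. LIMA1 (EPLIN, which links cadherin complexes to actin) rose by 0.45 (adjusted p = 0.00259, limma) and VCL (vinculin) by 0.30 on the log2 scale. AFDN (afadin, named MLLT4 in the files) was lower by a log2 fold change of -0.62, and NECTIN1, its membrane partner, by -0.31. CAMSAP3, which ties microtubule minus ends to the p120 complex through PLEKHA7, had the lowest value, -0.67 (adjusted p = 0.00291, limma). In the list of cadherin turnover and p120 signalling, all 20 genes were tested, with 1 higher and 4 lower. CDC42, a regulator of cell polarity, was higher by 0.24. FYN, a Src family kinase, was lowest at -0.81 (adjusted p = 0.00897, limma), and CBLL1 (-0.32), the gene of the Hakai ubiquitin ligase, and NUMB (-0.20) were also lower. FER, a kinase that binds p120 catenin, had the highest value, 0.28, and was not called.

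Among 15 regulators of CDH1 transcription and CTNND1 splicing, 13 were tested, with 3 higher and 0 lower, against 5.62% and 7.36% of all genes tested. The median log2 fold change was 0.23. Counting untested genes too, 7 were higher without overlap and 1 lower, against 10.6% and 15% of all rows with at least 1 read. ELF3, an epithelial transcription factor, measured 0.145, 0.245 and 0.376 RPKM in HGC27-FN1 3′-UTR against 0.0311, 0.018 and 0.0225 RPKM (log2 fold change 1.47, adjusted p = 0.0271, limma). ELF3 reached the minimum in no control library and so, like CDH13, entered the test only through the group where it was high. SNAI2 (Slug), a repressor of CDH1, was also higher, at 4.80, 4.63 and 4.25 RPKM against 2.12, 2.42 and 2.85 RPKM (log2 fold change 0.87, adjusted p = 0.00718, limma). TWIST1, another inducer of the mesenchymal state, averaged 72.2 ± 1.33 and 52.8 ± 5.89 RPKM (SD, n = 3 each) and passed the test at a log2 fold change of 0.46 (adjusted p = 0.016, limma). ZEB1, which binds the CDH1 promoter as a repressor, was at 14.9 and 14.8 RPKM (log2 fold change 0.02, adjusted p = 0.863, limma). FOXA1 had the lowest value of the list, -0.34, and was not called. ESRP1 (0.148 against 0.0519 RPKM, adjusted p = 0.0833, limma) and ESRP2 (0.243 against 0.0876 RPKM, adjusted p = 0.106, limma) were not called either. Both were higher without overlap and passed the threshold with voom and no filter (adjusted p = 0.00493 and 0.00182). Like ELF3, they entered the test only through the HGC27-FN1 3′-UTR libraries.

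Markers of cell types were read beside these results. In HGC27-control, EPCAM measured 0.16, 0.206 and 0.257 RPKM and KRT18 0.167, 0.161 and 0.21 RPKM. KRT8, at 2.14, 2.02 and 2.29 RPKM, and CLDN7, at 1.04, 0.951 and 1.04 RPKM, were the more abundant epithelial markers there. Of 8 epithelial markers, 7 were tested and 5 were higher in HGC27-FN1 3′-UTR. These were EPCAM, KRT7, KRT8, KRT18 and KRT19, with log2 fold changes of 2.59, 1.22, 2.44, 4.11 and 3.34. KRT7 and KRT19 entered the test only through the HGC27-FN1 3′-UTR libraries. CLDN4 and CLDN7 were not called, and CLDN3 had 0 reads in HGC27-FN1 3′-UTR. Summed epithelial markers ranged from 3.90 to 4.25 RPKM in HGC27-control and from 19.2 to 28.2 RPKM in HGC27-FN1 3′-UTR. They moved with CDH1, CDH3 and JUP, and their part in those results was not tested.

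The libraries did not rank alike. CDH1 was highest over the control mean in HGC27-FN1 3′-UTR replicate 1 (6.51-fold) and lowest in replicate 3 (4.79-fold). EPCAM was 6.89-, 6.81- and 12.5-fold higher and KRT18 21.0-, 22.5- and 38.0-fold higher in replicates 1, 2 and 3, with replicate 3 the highest for both. CDH13 was 5.08-, 5.33- and 5.56-fold higher in the same order, and its intervals in replicates 1 and 3 also overlapped (0.175 to 0.323 and 0.211 to 0.325 RPKM). Of 7 fibroblast markers, 6 were tested and 3 were higher, COL1A1, COL3A1 and LUM, while DCN, PDGFRA and PDGFRB were not called. PDGFRA was lower without overlap, at 1.99 RPKM in HGC27-FN1 3′-UTR against 2.31 RPKM in HGC27-control. The fibroblast sums were between 117 and 134 RPKM in HGC27-control and between 170 and 173 RPKM in HGC27-FN1 3′-UTR. Most of them came from COL3A1 (82.1 and 111 RPKM on average) and COL1A1 (30.5 and 44.5 RPKM). The endothelial sum was between 0.0912 and 0.141 RPKM in HGC27-control and between 0.186 and 0.287 RPKM in HGC27-FN1 3′-UTR. Most of this difference was TEK, at 0.0667 and 0.169 RPKM. TEK was the only endothelial marker tested, entered only through the HGC27-FN1 3′-UTR libraries and was not called (adjusted p = 0.105, limma). TIE1 was lower without overlap, from 5 reads in HGC27-FN1 3′-UTR against 10 in HGC27-control, and PECAM1 had 0 reads in all 6 libraries. The 2 blood cell markers summed to at most 0.29 RPKM. The part of these markers in the cadherin results was not tested.

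**Figure D5:**
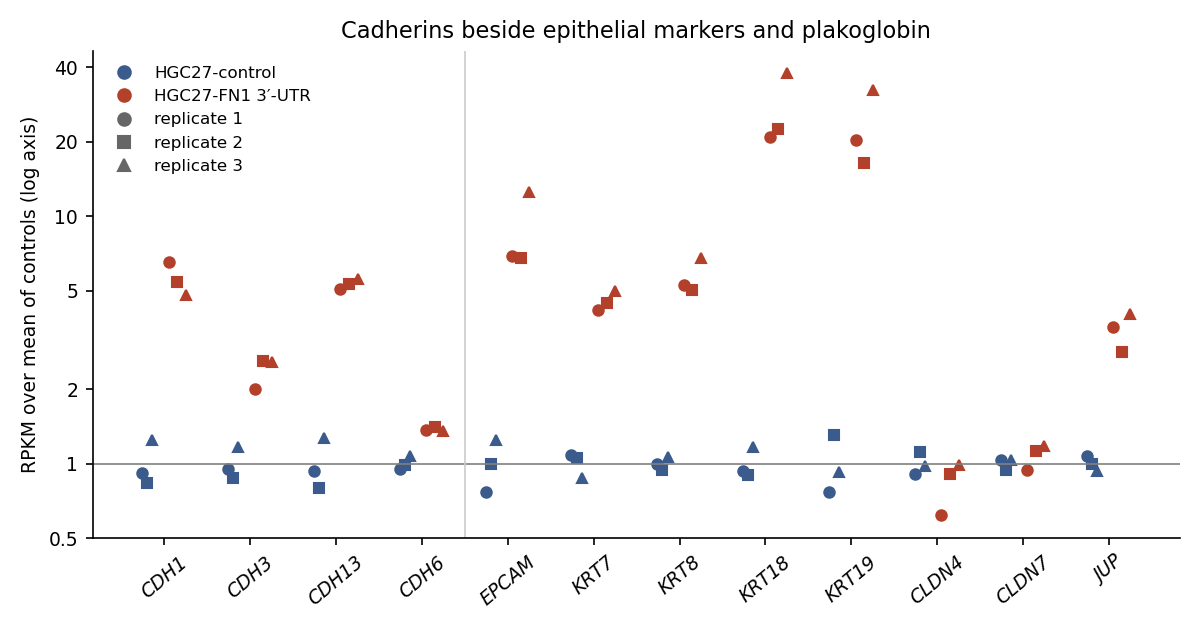
RPKM of each library divided by the mean of the 3 control libraries, on a log axis, for 4 cadherins (left of the line) and for epithelial markers and JUP (right). Controls (blue) lie around 1. CDH1 is highest in replicate 1 of HGC27-FN1 3′-UTR (red circle), whereas EPCAM, KRT18 and KRT19 are highest in replicate 3 (red triangle). The Poisson intervals of CDH1 in replicates 1 and 3 overlap.

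The genes most like CDH1 across the 6 libraries were TGM1, DKK1, TIMP3, KLHL4 and CLPTM1L. They had the highest Pearson correlation of RPKM with CDH1 (0.9982 to 0.9994) among 14652 tested genes with a mean of at least 1 RPKM. The 6 points formed 2 groups, so the correlations are given as a description. TGM1 (transglutaminase 1, of the epidermal barrier) measured 5.45, 4.75 and 4.44 RPKM in HGC27-FN1 3′-UTR and 1.43, 1.37 and 1.78 RPKM in HGC27-control. DKK1, a secreted Wnt antagonist, measured 27.5, 23.8 and 22.1 RPKM against 4.10, 4.15 and 5.45 RPKM. As for CDH1, replicate 1 was the highest of the HGC27-FN1 3′-UTR libraries for both genes, and replicate 3 the highest of the controls. Both genes were picked by their correlation with CDH1 over these libraries, so the shared order follows largely from that choice.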

How the data were processed

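Total RNA of 6 libraries of HGC27 cells was sequenced from stranded mRNA libraries. The authors deposited RPKM for each of 39739 gene rows, 1 table per library, with gene length. The submitters' processing notes name Trimmomatic 0.36, STAR 2.5.3a, featureCounts (Subread 1.5.1) and GRCh38, without settings. Gene spans of all 10 members equalled those of GENCODE 29. Since RPKM is no count, count models were not the main test. Whole reads were recovered from RPKM (100% of values within 0.02 of a whole number), and 3 reads correspond to between 0.081 and 0.1834 reads per 1000000. Names of 28 rows were dates and 2 names were repeated, none of them a member.

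Groups were compared on log2(RPKM + 0.1) for genes that had at least 0.1 RPKM in 3 libraries. The fit used limma 3.58.1 (R 4.3.3), with group as its factor, an empirical Bayes trend and Benjamini-Hochberg adjustment. Other settings were a pseudocount of 0.01 or 1, no filter, a minimum of 1 RPKM, voom on recovered reads, median-ratio scaling, no trend, a replicate block and leaving out each library. The main, voom and block fits were tested on simulated data. Only genes with higher mean reads than CDH3 and CDH13 were changed there, so recovery of such low genes was not tested. Single genes outside the fit were compared by an exact two-sided permutation test, and pooled reads by exact intervals.

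The members and lists were chosen with earlier results of these data known. All members are named. From the other lists, genes past an adjusted p of 0.05 and an absolute log2 fold change of 1, and the lowest and highest of each list, were to be named. Neighbours past an adjusted p of 0.05 were named, and the 5 genes with the highest correlation with CDH1. Other called partners, ZEB1, CTNNB1, ESRP1, ESRP2, CDH10, CDH24, ZFP90, further cell type markers and the rows within members were named after values were seen. Of the called partners, 1 is not reported here. The blood cell list had 3 genes, of which CD3E was not analysed here. Deviations of same-numbered libraries correlated by 0.0024, 0.0211 and 0.0103 over 23299 genes, so the numbers were not taken as pairs. No 2 libraries of the same group agreed within sampling noise (chi-square per gene between 2.67 and 6.19).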

Additional observations from a re-analysis of the deposited data

How the results depend on the processing

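No member was called lower under any of the 15 alternatives, and no fold change of the 6 tested members reversed. CDH2, CDH4, CDH5 and CDH11 were fitted only without the filter, on RPKM and with voom. The number of members called higher, 4 in the report, was 1 with a minimum of 1 RPKM, which leaves 3 members tested, and between 2 and 3 with 1 library left out. CDH1 and CDH6 stayed past the threshold in all alternatives that tested them, with log2 fold changes of 0.59 (pseudocount 1) to 2.40 and of 0.42 to 0.51. CDH3 (0.22 with pseudocount 1, up to 1.26) was lost in 8 alternatives and CDH13 (0.26 to 2.39) in 2. Over all genes, 1310 higher and 1715 lower calls became 2042 and 3066 with voom, 2128 and 2607 with voom and no filter, and 501 to 927 and 470 to 1015 with 1 library left out. Higher calls outnumbered lower ones with median-ratio scaling (1664 and 1387) and without control replicate 2 (501 and 470) or 3 (927 and 815). Of the partner genes, 8 higher became 17 with voom and 18 with voom and no filter, and leaving out 1 library gave 5 to 8 higher and 3 to 6 lower. The summed cadherin level stayed between 11.4 and 11.6 RPKM and between 7.52 and 8.01 RPKM. With the replicate number as a block, 2 members were called higher (CDH1, adjusted p = 0.0325, and CDH6, 0.0343, limma), CDH3 (0.0882) and CDH13 (0.0589) were not, 564 genes were higher and 598 lower, and 4 partner genes were lower. The numbers only name the libraries, so calls lost under the block are no sign of a weaker effect. Depth limits CDH2, CDH4, CDH5 and CDH11, which had between 1 and 78 reads in a group or none.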

Other observations

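The 14 other cadherins on the list were mostly low, except CDH24, at 4.63 RPKM in HGC27-FN1 3′-UTR and 4.59 RPKM in HGC27-control. Its log2 fold change was 0.01 (adjusted p = 0.915, limma). CDH10 and CDH7 averaged 1.42 and 1.02 RPKM in HGC27-control, above CDH1. Of the 14, 2 were higher without overlap and 5 lower in HGC27-FN1 3′-UTR, against 10.6% and 15% of all rows with at least 1 read. CDH17, the liver-intestine cadherin, had 10, 13 and 25 reads in HGC27-FN1 3′-UTR and 0, 0 and 5 in HGC27-control, or 0.171 ± 0.0433 and 0.0115 ± 0.02 RPKM (SD, n = 3 each). It passed the test with a log2 fold change of 1.28 (adjusted p = 0.0294, limma) but entered the test only through the HGC27-FN1 3′-UTR libraries. CDH7, a type II cadherin, was lower by a log2 fold change of -0.51 (adjusted p = 0.0299, limma). CDH22 had the lowest value, -0.79 (adjusted p = 0.0736, limma). With all 22 cadherins summed, the totals were 18.0, 19.0 and 18.6 RPKM in HGC27-FN1 3′-UTR and 14.8, 15.7 and 16.3 RPKM in HGC27-control. CDH6 made up 55.7, 54.5 and 53.6% of that sum in HGC27-FN1 3′-UTR and 47.1, 45.9 and 48.2% in HGC27-control. The direction of the CDH6 share was thus opposite to that among the 8 cadherins examined above, where it was lower in HGC27-FN1 3′-UTR.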
